A study of Mus musculus with 12 samples.

Results

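The 10 genes described here are the 6 actin genes of the mouse, Acta1, Acta2, Actc1, Actg2, Actb and Actg1, with Tagln, Cnn1, Myl9 and Srf. They were chosen by symbol, with earlier results of these data known, and found by their Ensembl identifiers among 53801 genes. All 10 passed the filter on low counts that left 15828 genes to test. The 12 libraries, 3 in each of 4 groups, were made from poly(A) RNA of C2C12, a line of mouse myoblasts. Sh2-Thap libraries came from Cebpg knockdown cells given thapsigargin for 6 h, and Sh2-DMSO libraries from knockdown cells given DMSO, the solvent, for the same time. Ctrl-Thap libraries came from control cells given thapsigargin for 6 h, and Ctrl-DMSO libraries from control cells given DMSO. The knockdown is named only by the label Sh2. The sources used here do not say what the control cells carried, whether the cells were clones or whether replicates were grown separately. Losing Cebpg and an off-target effect of Sh2 can therefore not be told apart, and a p-value here covers no more than the spread among the libraries, which may be technical. The cell line field names C2C12 and the gene identifiers are those of the mouse, although the growth protocol speaks of HeLa cells. The series title concerns the dependence of ATF4 on C/EBP gamma, the product of Cebpg, in the integrated stress response, and thapsigargin, an inhibitor of the SERCA calcium pump, is a standard way to start that response.

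Actins are the monomers of the thin filament. Acta1 and Actc1 encode the sarcomeric actins of skeletal and heart muscle, Acta2 and Actg2 the smooth muscle actins, and Actb and Actg1 the cytoplasmic actins of nearly every cell. Serum response factor, encoded by Srf, binds CArG boxes in the promoters of these genes and of contractile genes such as Tagln (transgelin), Cnn1 (calponin) and Myl9 (a regulatory light chain of myosin). It works with cofactors of 2 kinds: the myocardin-related factors MRTF-A and MRTF-B, which monomeric actin holds back, and the ternary complex factors Elk1, Elk3 and Elk4, which MAP kinases activate.

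Sequencing reads tell the actins apart where their transcripts differ. The coding sequences were 81.5% to 88.7% identical between pairs. The pair Actb and Actg1 was the closest, and Acta1 and Actc1 shared 86.2% of aligned bases. The first bases of each coding sequence are shown because this end parts the cytoplasmic from the muscle proteins. They run from the start codon to the same codon near the amino end, are taken from GENCODE vM21 transcripts on GRCm38 and are compared with Acta1 by pairing the start codons and aligning the remaining bases at their last base. Capitals mark the bases that differ from Acta1 in this alignment, and codons of Acta1 without a partner are left out. In Actg2 the codon TGT is thereby set against gac of Acta1 and not against tgc, so its capitals come from the alignment.
Acta1: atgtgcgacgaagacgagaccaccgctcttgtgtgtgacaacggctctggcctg
Actc1: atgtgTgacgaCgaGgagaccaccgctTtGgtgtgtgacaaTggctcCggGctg
Acta2: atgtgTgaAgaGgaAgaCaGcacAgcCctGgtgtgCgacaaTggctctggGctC
Actg2: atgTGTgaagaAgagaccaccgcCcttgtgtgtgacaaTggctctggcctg
Actb: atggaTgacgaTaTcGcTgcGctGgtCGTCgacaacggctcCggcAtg
Actg1: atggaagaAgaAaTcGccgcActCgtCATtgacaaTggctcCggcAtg
The codon after the start encodes cysteine in the 4 muscle and smooth muscle genes and an acidic residue in Actb and Actg1. Stretches of 100 bases found in the transcript of another gene made up 51.1% of Actg1, nearly all of them shared with processed copies such as Gm12715 and Gm8399, and 33.2% of Tagln, shared with the antisense gene Gm48529 and with Pcsk7. The share was 1.1% for Actb and 0 for the other 7 genes. The deposited counts keep reads not aligned uniquely, 4.11% to 5.42%, and ambiguous reads, 6.47% to 6.88%, apart from those given to a gene. The levels of Actg1 and Tagln are therefore uncertain and may be too low, by an amount that was not tested.

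Promoter windows, 250 bases before to 50 after the RefSeq start on GRCm38.p6, were at hand for 7 of the 10 genes. The RefSeq starts of Actc1, Acta2, Actg1, Myl9, Cnn1 and Srf lie inside the GENCODE genes, farthest in for Actc1 and Acta2. That of Acta1 lies just outside. A CArG box, CC and GG around 6 bases that are each A or T, was found in the windows of Acta1, Actc1, Actg1, Myl9 and Srf. Of all 32851 windows 1.63% held one. Srf, whose product binds the box, held 2 boxes, and 0.0183% of all windows held 2 or more. The Acta2 window held only boxes with 1 mismatch, a looser match found in 19.9% of windows, and the Cnn1 window held neither. The stretches around the boxes are shown on the strand of the gene, with the boxes in capitals.
Acta1, chr8:123894779-123894878, minus strand: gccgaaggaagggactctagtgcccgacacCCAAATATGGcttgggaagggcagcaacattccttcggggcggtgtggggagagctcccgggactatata
Actc1, chr2:114052876-114052975, minus strand: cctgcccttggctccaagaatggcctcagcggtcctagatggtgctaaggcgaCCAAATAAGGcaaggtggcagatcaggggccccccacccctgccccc
Acta2, chr19:34255438-34255467, minus strand: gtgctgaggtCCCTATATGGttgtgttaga
Actg1, chr11:120348516-120348615, minus strand: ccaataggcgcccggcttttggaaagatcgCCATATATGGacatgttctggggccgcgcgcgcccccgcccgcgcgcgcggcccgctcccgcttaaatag
Myl9, chr2:156775273-156775372, plus strand: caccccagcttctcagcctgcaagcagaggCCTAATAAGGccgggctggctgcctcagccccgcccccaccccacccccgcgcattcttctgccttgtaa
Srf, chr17:46556175-46556274, minus strand: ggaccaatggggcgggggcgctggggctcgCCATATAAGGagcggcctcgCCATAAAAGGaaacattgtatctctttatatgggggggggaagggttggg
Relative to the RefSeq start the box began at base -73 in Acta1, -47 in Actc1, -90 in Actg1, -161 in Myl9, and -82 and -62 in Srf. Read on either strand, GGAATG, the core of the muscle CAT element, was in the windows of Acta1 and Acta2 and in 14.7% of all windows. The E-box CANNTG was in the windows of 6 of the 7 genes, all but Srf, and in 72.3% of all windows. TGATGCAA, the composite element bound by ATF4 with a C/EBP partner, was in 0.895% of all windows and in none of these 7. A match is a run of letters and not a measured binding site.

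The libraries held 29.4 to 47.7 M gene reads. Levels are given as normalised counts per M gene reads (CPM), scaled by TMM, and as CPM per kb of exon where genes are compared with each other. Cebpg was at 6.11, 5.58 and 5.29 CPM in Sh2-Thap and 4.62, 3.74 and 5.18 CPM in Sh2-DMSO libraries, against 211, 219 and 216 CPM in Ctrl-Thap and 51.7, 51.4 and 60.6 CPM in Ctrl-DMSO libraries. All 7 myoblast markers were detected in every group, with a summed level of 1900 to 2100 CPM in knockdown libraries and 1970 to 2620 CPM in control libraries. These sums cover opposite changes. In DMSO the knockdown raised 2 of the 7 and lowered 4, against 25% of all genes up and 26.5% down. With thapsigargin it raised 2 and lowered 3, against 28.5% up and 28.4% down. The rises are near the shares of all genes. Thapsigargin raised Myf5 alone, and lowered 5 in knockdown and 6 in control cells, against 34.4% and 37% of all genes down. Markers of differentiating muscle, 7 genes, summed to 4.56 to 5.18 CPM in knockdown and 14.5 to 18.4 CPM in control libraries. The summed smooth muscle markers, which include Actg2, ran from 364 to 598 CPM in knockdown and from 246 to 406 CPM in control libraries. Of these 5 genes, Myh11 and Itga8 stayed under 1 CPM. Of the 4 tested, 3 were called up and 0 down with the knockdown in each treatment. Of all genes 25% were called up in DMSO and 28.5% with thapsigargin. No marker of any list was at 0 in all libraries. Fibroblast markers summed to 138 to 168 CPM in Sh2-Thap and 330 to 351 CPM in Sh2-DMSO, against 119 to 138 CPM in Ctrl-Thap and 372 to 377 CPM in Ctrl-DMSO, so that they were lower with thapsigargin. Endothelial markers were higher with thapsigargin, at 13.2 to 15.5, 5.51 to 6.56, 23.2 to 27.3 and 3.84 to 4.85 CPM in the same order of groups, as were epithelial markers, at 7.2 to 8.49, 1.09 to 1.13, 2.99 to 3.57 and 0.318 to 0.429 CPM. Leukocyte markers stayed at or below 8.61 CPM in knockdown and 5.85 CPM in control libraries. The part of these markers in the results below was not tested.

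Knockdown cells held more muscle and smooth muscle actin RNA, calponin RNA and Myl9 RNA than control cells, in either treatment, with Acta1 and Cnn1 changed the most. Thapsigargin lowered most of the 10 genes in both cell populations. In DMSO the knockdown raised 6 of the 10 genes (Acta1, Acta2, Actc1, Actg2, Cnn1 and Myl9) and lowered Actg1, where 25% of all tested genes were called up and 26.5% down by edgeR at an adjusted p under 0.05. With thapsigargin it raised 7 genes, the same 6 and Tagln, and lowered Srf, against 28.5% of all genes up and 28.4% down. Scaled by library totals alone, this comparison had 9 of the 10 genes up and Srf no longer called, with 6317 of all genes up and 3167 down, against 4512 and 4495 with TMM. In knockdown cells thapsigargin lowered 9 genes, all but Tagln, which was not called, against 34.4% of all genes down and 35.4% up. In control cells it lowered 7 genes, all but Acta1, Tagln and Cnn1, which were not called, against 37% of all genes down and 37.7% up. The median log2 change of the 10 genes was 0.675 for the knockdown in DMSO and 1.07 with thapsigargin, -0.87 for thapsigargin in knockdown cells and -0.95 in control cells. Over all tested genes these medians lay between -0.000352 and 0.0157. In bulk RNA, fewer cells of a type and less RNA per cell cannot be told apart. The 4 comparisons share groups of libraries, so their values are set side by side without a test of likeness.

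**Figure D1:**
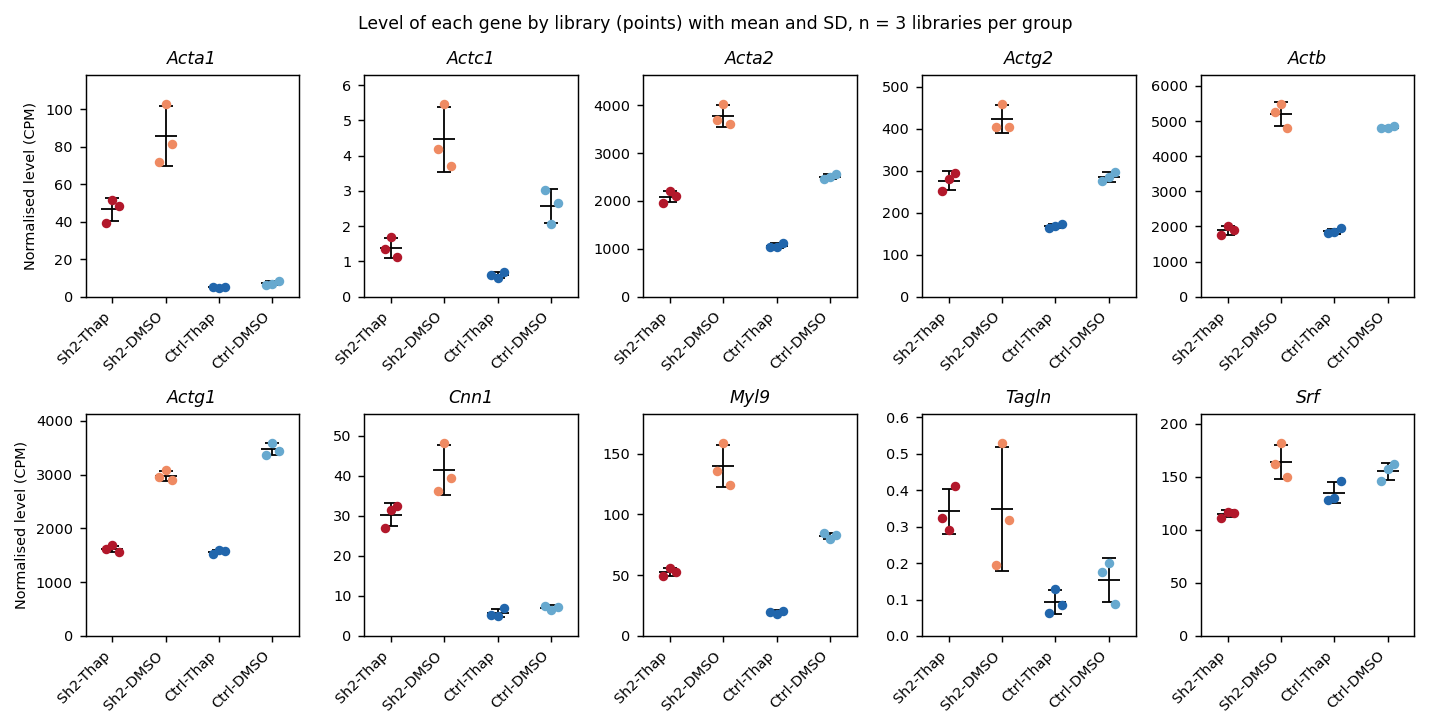
Normalised level in CPM (y axis, linear from 0, a scale of its own for each gene) of the 10 genes in every library of the 4 groups (x axis), with points for libraries and bars for the mean and SD (n = 3 each). Acta1 and Cnn1 separated knockdown from control libraries in either treatment, whereas Actb and Actg1 separated thapsigargin from DMSO libraries.

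Acta1 (ENSMUSG00000031972, chr8:123891769-123894751, minus strand) encodes skeletal muscle actin, which myoblasts make little of before they fuse. Its level was 39.4, 51.6 and 48.5 CPM in Sh2-Thap and 72.0, 103 and 81.4 CPM in Sh2-DMSO libraries, against 5.12, 4.66 and 5.23 CPM in Ctrl-Thap and 6.18, 6.95 and 8.35 CPM in Ctrl-DMSO libraries. The 6 knockdown libraries all lay far above the 6 control libraries. In DMSO the knockdown raised Acta1 12-fold (log2 change 3.58, SE 0.17, adjusted p = 2.96e-08), which placed it 67th from the top of 15828 genes. With thapsigargin the rise was 9.32-fold (3.22, SE 0.18, adjusted p = 8.24e-08), the 20th highest of all genes. Of 6 tested markers of differentiating muscle, 5 fell with the knockdown in each treatment and the other was not called. The share of all genes called down was 26.5% in DMSO and 28.4% with thapsigargin. These markers were scarce, and their relation to Acta1 was not tested. Thapsigargin lowered Acta1 in knockdown cells (-0.88, SE 0.14, adjusted p = 0.000235). In control cells the libraries did not overlap either, but the change missed the threshold (-0.53, SE 0.22, adjusted p = 0.0562). It passed when Ctrl-DMSO replicate 1, Sh2-DMSO replicates 1 or 2, or Sh2-Thap replicates 1 or 2 were left out, with adjusted p from 0.00166 to 0.0478, and with DESeq2 (adjusted p = 0.0112), and the thapsigargin effects in knockdown and control cells differed by -0.36 (SE 0.27, adjusted p = 0.346).

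Actc1 (ENSMUSG00000068614, chr2:114047282-114053548, minus strand), the heart muscle actin that is also the main sarcomeric actin of developing skeletal muscle, was near the limit of what this depth shows, with 19 to 186 reads a library. It was at 1.35, 1.69 and 1.12 CPM in Sh2-Thap and 4.2, 5.48 and 3.7 CPM in Sh2-DMSO libraries. Control libraries held 0.611, 0.52 and 0.703 CPM in Ctrl-Thap and 3.03, 2.06 and 2.66 CPM in Ctrl-DMSO. Knockdown libraries were above control libraries in each treatment, and thapsigargin libraries below DMSO libraries in each cell population. The knockdown raised Actc1 by 0.79 on the log2 scale in DMSO (SE 0.18, adjusted p = 0.000317) and by 1.18 with thapsigargin (SE 0.26, adjusted p = 0.000207). Thapsigargin lowered it to 30.9% of the DMSO level in knockdown cells (-1.69, SE 0.19, adjusted p = 2.56e-09) and to 23.5% in control cells (-2.09, SE 0.23, adjusted p = 1.06e-09). The 2 effects of thapsigargin differed by 0.39 (SE 0.31, adjusted p = 0.356). Among the sarcomeric actins the knockdown change was larger for Acta1 and the thapsigargin change larger for Actc1, a difference between genes that was not tested.

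Acta2 (ENSMUSG00000035783, chr19:34241090-34255590, minus strand), smooth muscle alpha-actin, was the most abundant of the muscle-type actins in every group, at 951, 1720, 486 and 1140 CPM per kb in Sh2-Thap, Sh2-DMSO, Ctrl-Thap and Ctrl-DMSO libraries. By library it was at 1963, 2198 and 2106 CPM in Sh2-Thap and 3685, 4035 and 3616 CPM in Sh2-DMSO, against 1038, 1042 and 1118 CPM in Ctrl-Thap and 2460, 2507 and 2554 CPM in Ctrl-DMSO. The order of the groups was Sh2-DMSO, Ctrl-DMSO, Sh2-Thap and Ctrl-Thap from high to low, and no 2 neighbours overlapped. The knockdown raised Acta2 1.51-fold in DMSO (0.59, SE 0.05, adjusted p = 2.48e-12) and 1.96-fold with thapsigargin (0.97, SE 0.05, adjusted p = 4.55e-18). Thapsigargin lowered it to 55.3% in knockdown cells (-0.86, SE 0.05, adjusted p = 6.21e-17) and to 42.5% in control cells (-1.23, SE 0.05, adjusted p = 2.23e-21). The test of the difference between these effects gave 0.38 (SE 0.07, adjusted p = 2.82e-05): Acta2 fell less in knockdown than in control cells, which is the same as a larger knockdown effect with thapsigargin than in DMSO.

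Actg2 (ENSMUSG00000059430, chr6:83512905-83536265, minus strand), smooth muscle gamma-actin of gut and bladder, showed the same order at a lower level. It was at 251, 281 and 295 CPM in Sh2-Thap and 404, 460 and 405 CPM in Sh2-DMSO, against 164, 169 and 172 CPM in Ctrl-Thap and 275, 284 and 297 CPM in Ctrl-DMSO. The libraries of Sh2-Thap and Ctrl-DMSO overlapped, and all other groups lay apart. The knockdown raised Actg2 by 0.57 in DMSO (SE 0.05, adjusted p = 5.08e-10) and by 0.71 with thapsigargin (SE 0.05, adjusted p = 3.08e-12). Thapsigargin lowered it in knockdown cells (-0.62, SE 0.05, adjusted p = 2.95e-11) and in control cells (-0.76, SE 0.05, adjusted p = 2.42e-13). The difference of the thapsigargin effects was 0.14 (SE 0.08, adjusted p = 0.147) and passed the threshold without Sh2-DMSO replicate 2 (0.21, adjusted p = 0.0179) or without Sh2-Thap replicate 1 (0.21, adjusted p = 0.0266), and with library totals as the scaling (0.30, adjusted p = 0.00171).

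Actb (ENSMUSG00000029580, chr5:142903115-142906754, minus strand), cytoplasmic beta-actin, is widely used as a loading control. Its level was 1753, 2016 and 1896 CPM in Sh2-Thap and 5269, 5499 and 4816 CPM in Sh2-DMSO, against 1800, 1840 and 1949 CPM in Ctrl-Thap and 4789, 4808 and 4851 CPM in Ctrl-DMSO. Knockdown and control libraries overlapped in each treatment, while thapsigargin libraries lay at less than the lowest DMSO value throughout. Thapsigargin lowered Actb to 36.3% in knockdown cells (-1.46, SE 0.05, adjusted p = 8.14e-22) and to 38.7% in control cells (-1.37, SE 0.05, adjusted p = 1.87e-21). The knockdown changed it by 0.11 in DMSO (SE 0.05, adjusted p = 0.0651) and by 0.02 with thapsigargin (SE 0.05, adjusted p = 0.76), neither of which was called. The first value is close to the threshold and passed it without Sh2-DMSO replicate 3 (0.16, adjusted p = 0.0063), without Sh2-Thap replicate 2 (adjusted p = 0.0461) and with DESeq2 (adjusted p = 0.0472), among other alternatives. The second was called when libraries were scaled by their totals alone (0.15, adjusted p = 0.00477), a scaling that shifts the median of all genes by 0.13 in this comparison.

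Actg1 (ENSMUSG00000062825, chr11:120345690-120348542, minus strand), cytoplasmic gamma-actin, was at 1611, 1687 and 1563 CPM in Sh2-Thap and 2957, 3083 and 2897 CPM in Sh2-DMSO, against 1531, 1596 and 1586 CPM in Ctrl-Thap and 3373, 3592 and 3444 CPM in Ctrl-DMSO. It was the only actin that the knockdown lowered in DMSO (-0.22, SE 0.04, adjusted p = 5.62e-05), with all Sh2-DMSO libraries below all Ctrl-DMSO libraries. With thapsigargin the knockdown and control libraries overlapped (0.04, SE 0.04, adjusted p = 0.393), although scaling by library totals gave a call of 0.18 (adjusted p = 0.000182). Thapsigargin lowered Actg1 in knockdown cells (-0.88, SE 0.04, adjusted p = 2.06e-18) and, by more, in control cells (-1.14, SE 0.04, adjusted p = 9.81e-22). The difference of these effects was 0.26 (SE 0.06, adjusted p = 0.000713), whereas for Actb it was -0.09 (SE 0.07, adjusted p = 0.347).

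The make-up of the actin pool differed between the groups. The 6 actins together took 0.628%, 1.22%, 0.453% and 1.1% of gene reads in Sh2-Thap, Sh2-DMSO, Ctrl-Thap and Ctrl-DMSO libraries. Counted per kb of exon, the 4 muscle and smooth muscle actins made up 46.9% ± 0.761 of the pool in Sh2-Thap and 40.1% ± 0.792 in Sh2-DMSO, against 31.7% ± 0.373 in Ctrl-Thap and 30% ± 0.39 in Ctrl-DMSO (SD, n = 3 each). Knockdown libraries lay above control libraries in each treatment without overlap, and so did thapsigargin above DMSO libraries in each cell population. Most of this share was Acta2, which stood at 1.35 ± 0.0185 times Actb per kb in Sh2-Thap and 0.888 ± 0.032 times in Sh2-DMSO, against 0.698 ± 0.0064 in Ctrl-Thap and 0.635 ± 0.00781 in Ctrl-DMSO. In Sh2-Thap libraries alone Acta2 exceeded Actb. Acta1, in spite of its large change, made up 1.22% ± 0.108 of the pool in Sh2-Thap and 1.09% ± 0.158 in Sh2-DMSO, against 0.173% ± 0.0102 in Ctrl-Thap and 0.105% ± 0.0151 in Ctrl-DMSO. Within the cytoplasmic actins, Actb stood at 1.16 ± 0.0672 times Actg1 per kb in Sh2-Thap and 1.73 ± 0.0691 times in Sh2-DMSO, against 1.18 ± 0.0391 in Ctrl-Thap and 1.38 ± 0.0436 in Ctrl-DMSO. The shares carry the uncertainty in the level of Actg1, and no test was made of them.

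**Figure D2:**
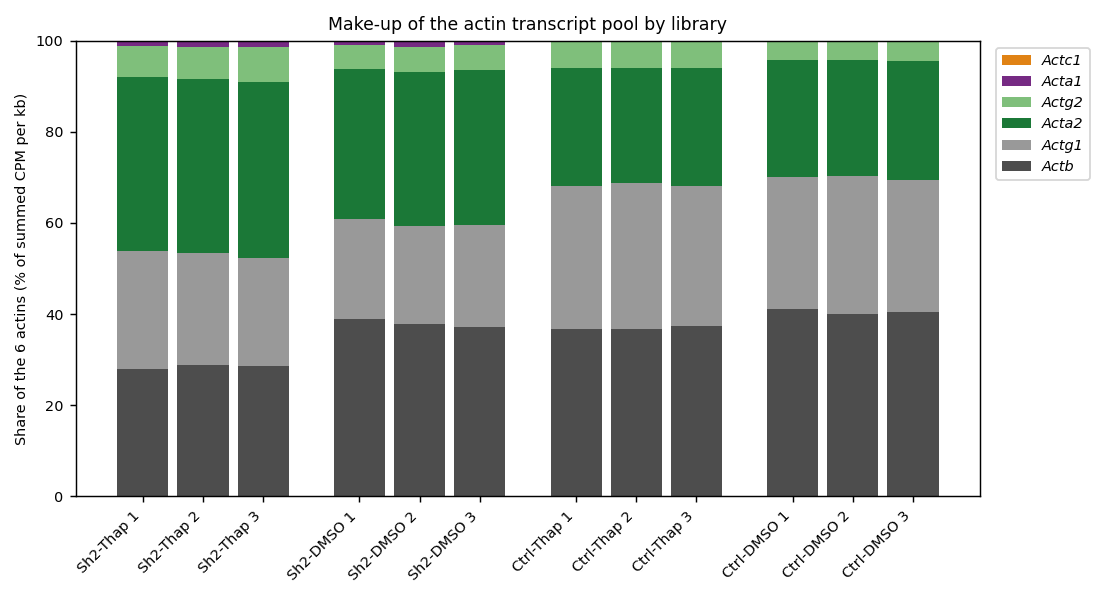
Share of each actin in the summed CPM per kb of the 6 actins (y axis, percent) in each of the 12 libraries (x axis, by group and replicate). The green Acta2 and Actg2 bands and the purple Acta1 band were wider in knockdown than in control libraries of the same treatment; Actc1, at most 0.0625% of the pool, is too thin to be seen.

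Cnn1 (ENSMUSG00000001349, chr9:22099216-22109630, plus strand) encodes calponin, a thin filament protein of smooth muscle. It was at 26.9, 31.5 and 32.4 CPM in Sh2-Thap and 36.1, 48.2 and 39.5 CPM in Sh2-DMSO, against 5.15, 5.05 and 7.0 CPM in Ctrl-Thap and 7.6, 6.44 and 7.25 CPM in Ctrl-DMSO. All knockdown libraries lay above all control libraries. The knockdown raised Cnn1 5.82-fold in DMSO (2.54, SE 0.12, adjusted p = 1.84e-12) and 5.3-fold with thapsigargin (2.41, SE 0.13, adjusted p = 3.81e-12). Thapsigargin lowered it in knockdown cells (-0.45, SE 0.1, adjusted p = 0.000816). In control cells the libraries overlapped and the change was not called (-0.31, SE 0.15, adjusted p = 0.0616), but it passed without Ctrl-Thap replicate 3, Sh2-DMSO replicates 1 or 2, or Sh2-Thap replicate 1, with adjusted p from 0.0033 to 0.0382, and with DESeq2 (adjusted p = 0.0352). The thapsigargin effects differed by -0.13 (SE 0.18, adjusted p = 0.612).

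Myl9 (ENSMUSG00000067818, chr2:156775420-156781658, plus strand), whose product is phosphorylated to start contraction of smooth muscle and non-muscle cells, was at 49.5, 56.0 and 52.7 CPM in Sh2-Thap and 136, 159 and 124 CPM in Sh2-DMSO. Control libraries held 20.1, 18.1 and 20.7 CPM in Ctrl-Thap and 84.6, 79.9 and 83.2 CPM in Ctrl-DMSO. The 4 groups kept the order seen for Acta2 and did not overlap. The knockdown raised Myl9 1.69-fold in DMSO (0.76, SE 0.07, adjusted p = 9.48e-10) and 2.69-fold with thapsigargin (1.43, SE 0.08, adjusted p = 4.26e-14). Thapsigargin lowered it to 37.8% in knockdown cells (-1.41, SE 0.07, adjusted p = 3.78e-15) and to 23.7% in control cells (-2.07, SE 0.08, adjusted p = 4.55e-18), with a difference of 0.67 between the effects (SE 0.1, adjusted p = 1.07e-05). In control cells its fall was the 219th lowest log2 change of all 15828 genes, next to that of Actc1, the 211th lowest.

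Tagln (ENSMUSG00000032085, chr9:45929619-45936058, minus strand), transgelin, an early marker of smooth muscle, had few counted reads, at 0.0467 to 0.175 CPM per kb as group means. It had 11, 9 and 14 reads in Sh2-Thap and 6, 18 and 11 reads in Sh2-DMSO, against 2, 6 and 3 reads in Ctrl-Thap and 6, 7 and 3 reads in Ctrl-DMSO. Scaled for depth, all Sh2-Thap libraries lay above all Ctrl-Thap libraries, and the fitted change of 1.79 was called (SE 0.55, adjusted p = 0.00613). In DMSO the libraries overlapped (1.17, SE 0.51, adjusted p = 0.0554), with a call without Sh2-DMSO replicate 1 (1.44, adjusted p = 0.0285). Thapsigargin gave -0.03 in knockdown cells (SE 0.45, adjusted p = 0.955) and -0.65 in control cells (SE 0.63, adjusted p = 0.357), changes not detectable at this depth, and the difference of 0.62 between them was not called (SE 0.77, adjusted p = 0.576). Exons of the antisense gene Gm48529 cover 62.4% of its exon bases, and without the strand of the libraries reads of the pair cannot be told apart; the low count of Tagln was not tested for reads set aside as ambiguous.

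**Figure D3:**
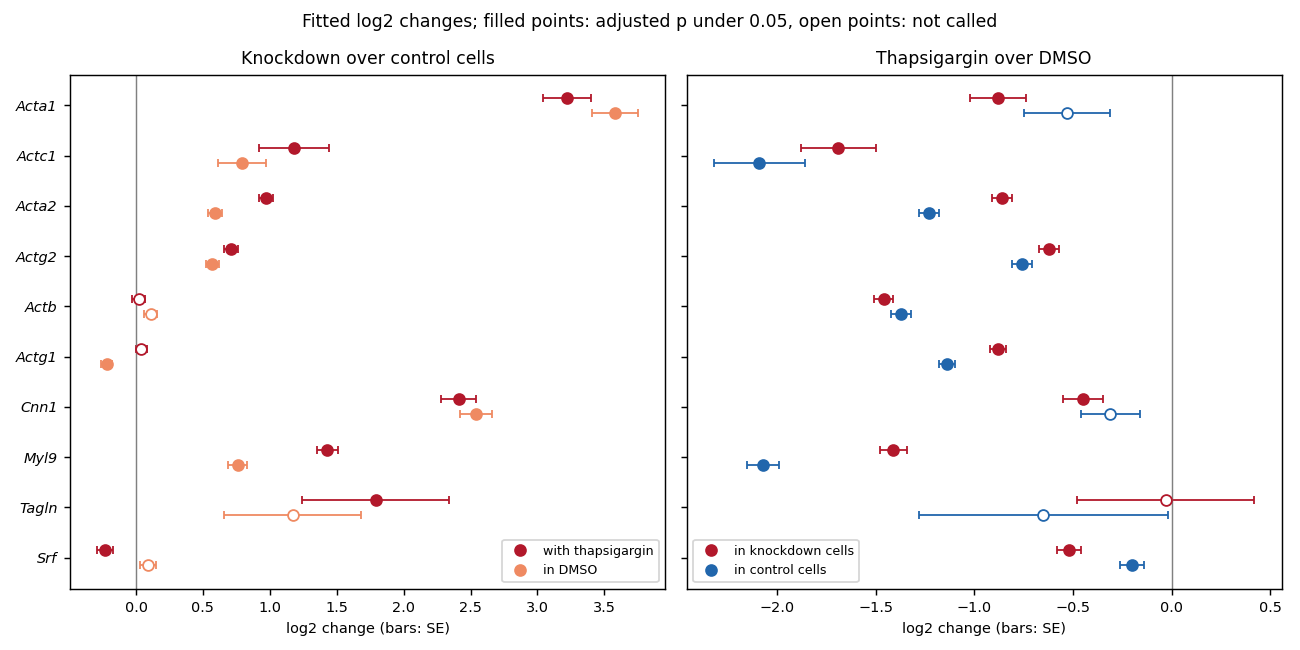
Fitted log2 changes (x axis) with SE for the 10 genes (y axis): knockdown over control cells with thapsigargin and in DMSO (left panel), and thapsigargin over DMSO in knockdown and control cells (right panel). Filled points have an adjusted p under 0.05; the knockdown changes reach 3.58 for Acta1, and the called thapsigargin changes are all below 0.

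Srf (ENSMUSG00000015605, chr17:46548329-46556175, minus strand) itself moved little. It was at 111, 117 and 116 CPM in Sh2-Thap and 162, 182 and 150 CPM in Sh2-DMSO, against 128, 130 and 146 CPM in Ctrl-Thap and 146, 157 and 162 CPM in Ctrl-DMSO. The Sh2-Thap libraries were the lowest, below all others, and the other groups overlapped with a neighbour. The knockdown lowered Srf with thapsigargin (-0.23, SE 0.06, adjusted p = 0.00167), a call lost when libraries were scaled by their totals (-0.10, adjusted p = 0.145). In DMSO it changed by 0.09 (SE 0.06, adjusted p = 0.226), or by 0.15 without Sh2-DMSO replicate 3 (adjusted p = 0.0299). Thapsigargin lowered Srf in knockdown cells (-0.52, SE 0.06, adjusted p = 1.7e-08) and in control cells (-0.2, SE 0.06, adjusted p = 0.00378). The effects differed by -0.32 (SE 0.08, adjusted p = 0.00373), the opposite sign to Acta2, Actg1 and Myl9, and by -0.16 with library totals (adjusted p = 0.116), a scaling that shifts the median of all genes by 0.16 in this comparison. The tested difference was called up for 3 of the 10 genes, against 17.6% of all genes, and down for Srf alone, against 17.7%.

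Among the 6 cofactor genes, Elk3 encodes the ternary complex factor also known as Net. It was at 83.4, 90.3 and 92.1 CPM in Sh2-Thap and 120, 126 and 117 CPM in Sh2-DMSO, against 40.0, 39.6 and 42.8 CPM in Ctrl-Thap and 103, 99.7 and 97.9 CPM in Ctrl-DMSO. The knockdown raised it by 0.28 in DMSO (SE 0.05, adjusted p = 1.39e-05) and by 1.12 with thapsigargin (SE 0.05, adjusted p = 6.27e-19), with a difference of 0.84 (SE 0.07, adjusted p = 1.58e-11). Mrtfa, the gene of MRTF-A, rose with the knockdown in DMSO (0.52, SE 0.05, adjusted p = 1.87e-11). With thapsigargin Mrtfa was at 123 ± 1.49 CPM in Sh2-Thap against 110 ± 5.16 CPM in Ctrl-Thap libraries (SD, n = 3 each). Its thapsigargin effects differed by -0.36 (SE 0.06, adjusted p = 2.91e-05). Mrtfb rose with the knockdown under thapsigargin (0.23, SE 0.06, adjusted p = 0.0023), and Elk1 fell (-0.34, SE 0.06, adjusted p = 4.34e-06). Elk4 fell with the knockdown in DMSO (-0.17, SE 0.06, adjusted p = 0.0277) and with thapsigargin (-0.27, SE 0.06, adjusted p = 0.000529). Of the 6, 2 rose and 1 fell with the knockdown in DMSO, against 25% of all genes up and 26.5% down, and 3 rose and 2 fell with thapsigargin, against 28.5% up and 28.4% down. With so few genes these counts are near the shares of all genes. Myocd, the gene of myocardin, was scarce, at 1.14 ± 0.455 CPM in Sh2-Thap and 0.202 ± 0.0776 CPM in Sh2-DMSO, against 1.69 ± 0.237 CPM in Ctrl-Thap and 0.106 ± 0.0174 CPM in Ctrl-DMSO (SD, n = 3 each). Thapsigargin raised Myocd in knockdown cells (2.48, SE 0.38, adjusted p = 8.52e-07) and in control cells (3.94, SE 0.40, adjusted p = 1.45e-10).

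Other genes that MRTF and SRF are known to drive, 24 of the cytoskeleton and its attachments, were called up more often than down with the knockdown. With thapsigargin the knockdown raised 18 and lowered 4 (median 0.371), against 28.5% of all genes up and 28.4% down. In DMSO it raised 11 and lowered 5 (median 0.098), against 25% up and 26.5% down. In knockdown cells thapsigargin lowered 12 and raised 8 (median -0.106), the rises being near the share of all genes, with 34.4% down and 35.4% up. In control cells it lowered 16 and raised 5 (median -0.432), against 37% of all genes down and 37.7% up. Ccn2, a secreted matrix factor also called CTGF, was at 444, 555 and 504 CPM in Sh2-Thap and 431, 490 and 399 CPM in Sh2-DMSO, against 121, 119 and 120 CPM in Ctrl-Thap and 369, 347 and 379 CPM in Ctrl-DMSO. Thapsigargin raised it in knockdown cells (0.19, SE 0.07, adjusted p = 0.0359) and lowered it in control cells (-1.61, SE 0.08, adjusted p = 8.37e-12), with a difference of 1.79 (SE 0.11, adjusted p = 1.45e-09). Tpm2, a tropomyosin that lies along the actin filament, followed Acta2: the knockdown raised it by 0.56 in DMSO (SE 0.05, adjusted p = 1.28e-10) and by 0.87 with thapsigargin (SE 0.05, adjusted p = 3.1e-15). Filip1l was lower with the knockdown in DMSO (-0.58, SE 0.05, adjusted p = 6.33e-12) and higher with it under thapsigargin (0.29, SE 0.05, adjusted p = 1.98e-06). Thapsigargin raised Filip1l in knockdown cells (1.49, SE 0.05, adjusted p = 3.06e-23) and in control cells (0.62, SE 0.05, adjusted p = 1.07e-13), with a difference of 0.87 (SE 0.07, adjusted p = 2.41e-12).

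Of 9 further smooth muscle contractile genes tested, the knockdown raised 3 and lowered 5 in DMSO (median -0.22), against 25% of all genes up and 26.5% down, and raised 4 and lowered 3 with thapsigargin (median 0.259), against 28.5% up and 28.4% down. The rises in DMSO and the falls with thapsigargin are near the shares of all genes. Mylk, the kinase that phosphorylates Myl9, fell with the knockdown in DMSO (-1.96, SE 0.13, adjusted p = 2.83e-14) and with thapsigargin (-1.75, SE 0.14, adjusted p = 1.22e-12), whereas Myl9 rose. Lmod1, a leiomodin that seeds actin filaments, was at 13.6, 14.4 and 14.6 CPM in Sh2-Thap and 23.0, 26.7 and 21.8 CPM in Sh2-DMSO, against 4.15, 3.42 and 4.95 CPM in Ctrl-Thap and 19.4, 17.9 and 19.1 CPM in Ctrl-DMSO. It rose with the knockdown under thapsigargin (1.78, SE 0.11, adjusted p = 1.07e-15). Thapsigargin lowered 4 of the 9 genes and raised 3 in knockdown cells (median -0.219), and lowered 8 and raised 1 in control cells (median -0.597), against 34.4% and 37% of all genes down and 35.4% and 37.7% up. Of the 6 other myosin light chain genes, the knockdown lowered 4 in DMSO, with the other 2 not called (median -0.355), and lowered 4 and raised 1 with thapsigargin (median -0.24), against 26.5% and 28.4% of all genes down. Myl12b, a non-muscle relative of Myl9, fell with the knockdown in DMSO (-1.12, SE 0.05, adjusted p = 5.5e-19), to 59.8 from 130 CPM. The more abundant Myl12a, at 894 CPM in Sh2-DMSO against 993 CPM in Ctrl-DMSO, fell by less (-0.15, SE 0.04, adjusted p = 0.00375).

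The ternary complex factor targets, 11 genes of the immediate early kind that include Srf, were counted apart. In DMSO the knockdown raised 7 and lowered 3 (median 0.28), against 25% of all genes up and 26.5% down, and with thapsigargin it raised 4 and lowered 6 (median -0.231), against 28.5% up and 28.4% down. Fosb rose with the knockdown in DMSO (2.78, SE 0.16, adjusted p = 4.69e-12), as did Fos (1.41, SE 0.09, adjusted p = 3.88e-14), both subunits of AP-1. Under thapsigargin the knockdown raised Fosb (2.0, SE 0.15, adjusted p = 2.39e-10), Nr4a1 (1.55, SE 0.11, adjusted p = 2.42e-13) and Fos (0.6, SE 0.09, adjusted p = 1.09e-06). It lowered Egr3, a zinc finger factor (-1.49, SE 0.11, adjusted p = 1.42e-13). The difference of thapsigargin effects was called down for 8 of these 11 genes and up for 1, and up for 14 of the 24 MRTF and SRF targets and down for 4, the medians being -0.319 and 0.25, where 17.7% of all genes were called down and 17.6% up.

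Genes that control actin assembly were mostly called up with the knockdown and down with thapsigargin. Of 15 tested, 10 rose and 1 fell with the knockdown in DMSO (median 0.144), against 25% of all genes up and 26.5% down. The same numbers held with thapsigargin (median 0.261), against 28.5% up and 28.4% down. Thapsigargin lowered 14 in knockdown cells, with 1 not called (median -0.548), and lowered 13 and raised 1 in control cells (median -0.674), against 34.4% and 37% of all genes down. Tmsb4x, thymosin beta 4, which sequesters actin monomers, fell with thapsigargin in knockdown cells (-1.27, SE 0.08, adjusted p = 1.19e-09) and in control cells (-1.67, SE 0.08, adjusted p = 3.05e-11). Pfn1, profilin, which feeds monomers to growing filaments, rose with the knockdown in DMSO (0.4, SE 0.05, adjusted p = 6.21e-08) and with thapsigargin (0.71, SE 0.05, adjusted p = 1.13e-13).

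**Figure D4:**
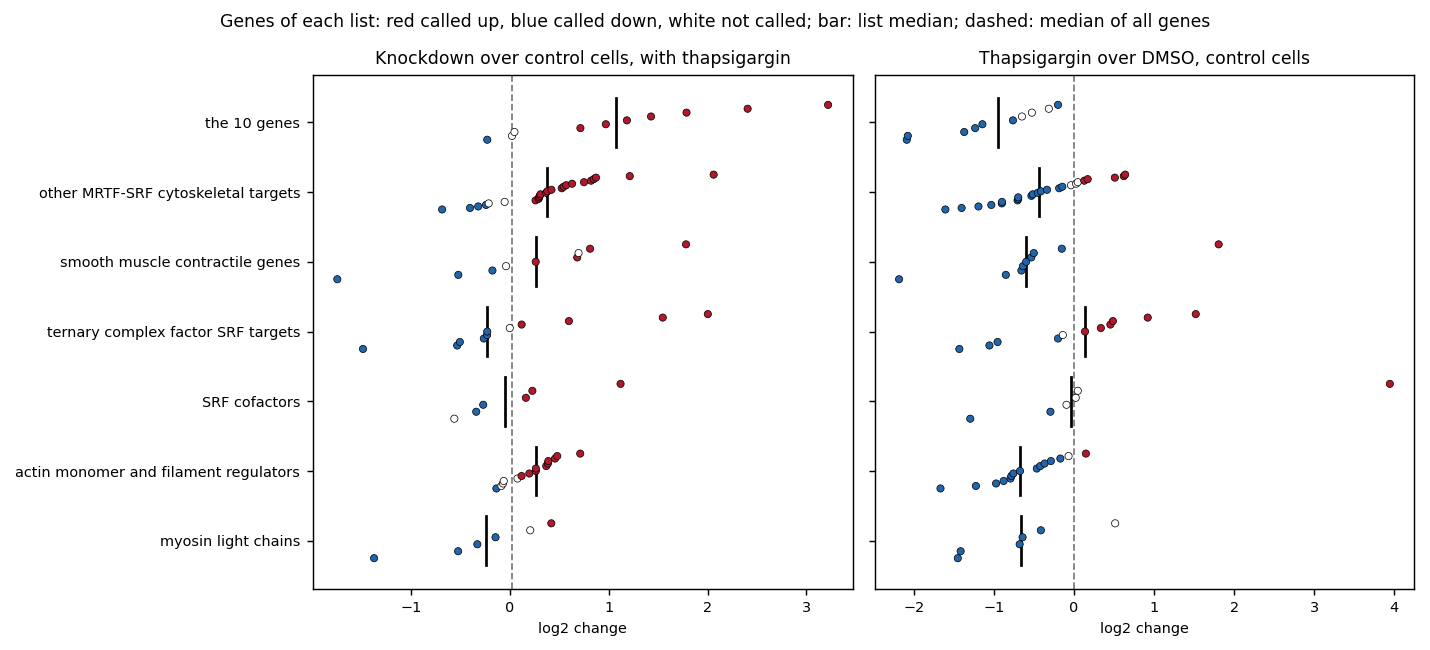
Log2 changes (x axis) of the genes in each list (y axis) for the knockdown with thapsigargin (left) and for thapsigargin in control cells (right), with red points called up, blue points called down, white points not called, a bar at the median of each list and a dashed line at the median of all tested genes. The median of the 10 genes lies at 1.07 on the left and -0.95 on the right.

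Across the 12 libraries, the genes whose log2 CPM was most like that of Acta1 were Prl2c2 (Pearson r = 0.996), Npy1r (0.994), Cnn1 (0.993), Serinc2 (0.991) and Hbegf (0.99). Most like Acta2 were Cryab (0.997), Tpm2 (0.997), Mtap (0.996), Rpa1 (0.996) and Nectin1 (0.995). Within the 10 genes, Acta2 went with Myl9 (0.995), Actg2 (0.988) and Actc1 (0.97), while its likeness to Acta1 was 0.73 and that to Cnn1 0.702. Acta1 showed little likeness to Actb (0.247), Actg1 (0.108) or Srf (0.0457). The libraries fall into 4 groups, so these values describe how the group levels line up and carry no p-value.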

How the data were processed

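The authors selected poly(A) RNA and deposited raw read counts per gene for each library, per the labels' protocols and the files. Per the submitters' processing notes, the tools were Trim Galore, STAR 2.5.3a, bedtools 2.31.0 and DESeq2, with the builds mm10 and hg38. The counter, annotation and strand are not given in the sources used here. Of 53801 deposited identifiers, 53706 were matched to GENCODE vM21. The 5 entries that name no gene, 13.32% to 14.61% of reads, were left out. Libraries held 29.4 to 47.7 M gene reads, so counting error is small except for Actc1 and Tagln.

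Counts were tested with edgeR 4.0.16 (TMM, its filter for low counts, robust quasi-likelihood, 4 groups, 12 libraries, 8 residual degrees of freedom), with Benjamini-Hochberg adjustment over 15828 genes and calls under 0.05. An SE is approximate, worked out from the log2 change and the F statistic. CPM are TMM-scaled, and the exon length is the union of exons. The fit was tested on simulated data. Between replicates the chi-square of the counts was 2.51 to 9.83 for each gene on average, above counting noise, so all were kept. The 10 genes and the lists were chosen with earlier results of these data known. Of each list at most 4 genes per comparison could be named. They had the largest absolute changes among called genes with a mean of at least 5 CPM in a group compared. Myocd, below that, the levels of Mrtfa with thapsigargin, and further comparisons of Ccn2 and Filip1l were added after their values were seen. The counts of calls over all genes and over the 10 genes, and the values of the 10 genes, were recomputed where the fit allowed with DESeq2 1.42.0, limma-voom (limma 3.58.1), a replicate block, only the groups compared, each library left out, a stricter threshold, and changed filters and scalings. The work ran in Python 3.11.15 (pandas 2.3.3, matplotlib 3.10.9) and R 4.3.3. The results of 1 list are not reported here.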

Additional observations from a re-analysis of the deposited data

Results flagged for a closer look

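The effect of thapsigargin in knockdown cells differed from that in control cells by the test of the difference itself for 4 of the 10 genes. It was called up for 3 and down for 1, against 17.6% of all genes up and 17.7% down. With so few genes these counts are near the shares of all genes. The difference, knockdown minus control, was 0.67 for Myl9 (adjusted p = 1.07e-05), 0.38 for Acta2 (adjusted p = 2.82e-05), 0.26 for Actg1 (adjusted p = 0.000713) and -0.32 for Srf (adjusted p = 0.00373). Thapsigargin lowered all 4 genes in both populations, Myl9, Acta2 and Actg1 by less in knockdown cells and Srf by more.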

How the results depend on the processing

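The 50 values of the 10 genes were recomputed under 982 alternatives. Of these, 936 kept the direction and the side of the threshold, 2 lost the call, 33 gained one and 11 changed sign. Each sign change was in a value that was not called. Scaling by library totals moved the most, and it shifts the median of all genes by 0.13 for the knockdown with thapsigargin, 0.12 for thapsigargin in knockdown cells and 0.16 for the difference of thapsigargin effects. Under it the difference was called up for 5204 and down for 1685 genes, against 2790 and 2804 with TMM. It left 0 of the 10 genes called down for the knockdown with thapsigargin and 0 for the difference, since both calls of Srf were lost (-0.09867 and -0.1599), and it turned the difference for Actb (0.06863) and Cnn1 (0.02525) and the thapsigargin change of Tagln in knockdown cells (0.08904). The last was 0.06211 with limma-voom and 0.01992 with the replicate block. Leaving out each library gave -0.03074 to 0.06918 for Actb in the knockdown with thapsigargin, -0.3085 to 0.3975 for Tagln with thapsigargin in knockdown cells and -0.2334 to 0.02837 for the Cnn1 difference. The cause of these changes was not tested.

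Whether replicate numbers pair the libraries was not tested. Same-numbered libraries of different groups correlated weakly, at -0.096 to 0.146 in their deviations from the group means, over 0.1 in 3 of 18 pairs. Libraries of unlike number correlated at -0.204 to 0.181, and 7 of 12 libraries correlated best with their own number. With the replicate block, the uncalled values of Actb for the knockdown in DMSO (0.1086, adjusted p = 0.0406), and of Acta1 (-0.5371, adjusted p = 0.000262) and Cnn1 (-0.3238, adjusted p = 0.0271) for thapsigargin in control cells, passed the threshold. Fits of only the groups compared gave no value for the difference of effects, which needs all 4 groups. For Tagln they gave a value only for thapsigargin in knockdown cells, and so none for its call in the knockdown with thapsigargin. The lists, pool shares and likeness were not recomputed. Actb for the knockdown in DMSO was also called with other size factors, other filters and only the groups compared (adjusted p = 0.0196 to 0.0424), and Acta1 and Cnn1 in control cells with only the groups compared (adjusted p = 0.000463 and 0.0307). Tagln could not be fitted with a minimum mean of 1 CPM, since it is below it. Depth limits Tagln, with 2 to 18 reads a library, and Actc1, with 19 to 186.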
